A study of Homo sapiens with 9 samples.

Results

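The transcripts of 10 genes for tropomyosins and other actin-binding proteins were followed in MDA-MB-468, an established human cell line of triple-negative breast cancer. The 10 genes are the tropomyosins TPM1, TPM2, TPM3 and TPM4, the filament bundlers FSCN1, ACTN1 and ACTN4, the myosin light chain MYL9, and the calponin family members TAGLN and CNN2. They were chosen by name, with their differences between BBOX1 hairpins and control in this same table already known, above all the large rises of TPM1 and FSCN1. Their differences are therefore given as a description with no p-value. All 10 were found among the 27315 gene entries of the table, and all 10 had levels high enough to be among the 13165 genes tested. Polyadenylated RNA was sequenced as 100-base read pairs from 9 libraries of lentivirus-infected cells, 3 with a scrambled control hairpin, 3 with the BBOX1 hairpin sh1 and 3 with the BBOX1 hairpin sh6. All 3 groups come from 1 cell line, carry an integrated hairpin vector and went through selection with the same dose of puromycin. The protocol gives sequences for hairpins named sh1 and sh2, so the sequence of sh6 is not known here. BBOX1 is the enzyme of the final step of carnitine synthesis, and the series asks what its depletion does to the transcriptome.

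Tropomyosins are coiled-coil dimers that lie end to end along the groove of the actin filament and decide which other proteins may bind it. Their genes give rise to many isoforms by alternative promoters and splicing, and a value per gene sums all of them. Fascin (FSCN1) packs filaments into the tight parallel bundles of filopodia, and the alpha-actinins ACTN1 and ACTN4 link filaments into the looser, contractile arrays of stress fibres. MYL9 is a regulatory light chain of myosin II, and transgelin (TAGLN) and calponin 2 (CNN2) bind along the filament side. In carcinoma cells, TPM1 is known as a gene often held low and fascin as one linked to migration.

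Recovered depth ran from 15726903 to 19731400 reads per library. BBOX1 itself had a normalised count of 2616 ± 226 in the controls (SD, n = 3, as for all values of this kind). It fell to 333 ± 11.5 in sh1 cells and to 601 ± 19.0 in sh6 cells, with adjusted p of at most 6.2e-22 in limma. The 6 epithelial markers were all tested, and their summed normalised count was 94715 to 106956 in the controls, 88537 to 93267 with sh1 and 105302 to 113846 with sh6. The largest part was KRT8, at means of 42986, 42206 and 50275 in the controls, sh1 and sh6. KRT19 had 23864, 17794 and 25406, KRT18 19232, 17764 and 20680, and EPCAM 6982, 5835 and 7418. CDH1 had 4433, 5208 and 4521, and CLDN4 was lower with both hairpins, at 2146, 1421 and 1303. TAGLN, MYL9 and TPM2 are also abundant in smooth muscle and fibroblasts, so markers of those cells were read beside them. Of the 8 smooth muscle markers 2 were tested, with MYOCD at 0 in every library and CNN1 at a mean normalised count of 0.331 or less in each group, and the list sum was 608 to 701 in the controls, 591 to 676 with sh1 and 776 to 887 with sh6. The larger part of that sum was SMTN, and the part of such cells in the TAGLN, MYL9 and TPM2 values was not tested. Of the 9 fibroblast markers 3 were tested, COL1A2, COL3A1, LUM, DCN and THY1 lay at 2.26 or less in each group, and the sums were 397 to 522, 349 to 422 and 396 to 490. The larger part of those sums was COL1A1, at means of 374, 304 and 332 in the controls, sh1 and sh6. FAP had 53.9, 53.1 and 35.5, PDGFRA 29.2, 12.3 and 50.1 and PDGFRB 9.46, 9.03 and 9.93. The part of fibroblasts in the values was not tested. In bulk RNA a lower level may mean fewer cells with a transcript or less of it per cell, and these cannot be told apart. Nothing in the labels shows the replicate libraries to be separate cultures, so the tests weigh differences against a variation that may be purely technical.

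Promoter sequence of 7 of the 10 genes could be read from RefSeq (GRCh38.p14), in 15 windows of 300 bases that run from 250 before to 50 after an annotated start. The windows were searched for the CArG box, the binding motif of serum response factor (SRF), which drives many genes of the contractile apparatus and whose pattern reads the same on both strands. It stood in 3 of the 15 windows, 1 each of ACTN1, CNN2 and TPM4, while 1.29% of all 35116 windows of the genome's genes hold it. The other 4 genes matched were TPM1, TPM2, TPM3 and ACTN4. The boxes are shown with 25 bases on either side because these 3 genes moved in different ways in the libraries. The box is in capitals and each sequence reads 5′ to 3′ on the strand of the gene.
ACTN1, chr14:68977703-68977762, minus strand: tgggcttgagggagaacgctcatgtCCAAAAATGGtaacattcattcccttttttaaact
CNN2, chr19:1026494-1026553, plus strand: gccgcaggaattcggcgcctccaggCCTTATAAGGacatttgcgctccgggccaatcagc
TPM4, chr19:16067340-16067399, plus strand: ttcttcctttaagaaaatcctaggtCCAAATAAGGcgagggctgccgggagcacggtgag
The box began 171 bases before the annotated start for ACTN1, 89 for CNN2 and 173 for TPM4. ACTN1 has 4 annotated starts in the table and TPM4 has 3, and the box lies beside 1 of them in each case. The ACTN1 window also held the only TEAD motif (GGAATG on either strand) of the 15, a motif found in 14.0% of all windows. The Sp1 motif GGGCGG, on either strand, stood in 12 of the 15 windows and in 45.0% of all windows, and the AP-1 motifs TGACTCA and TGAGTCA in 0 of 15 and 4.95%.

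The 10 genes did not move as 1 group. A gene is called below when limma's test, adjusted over all 13165 genes, gave a p under 0.05. With sh1, 8 of the 10 were called, 6 higher and 2 lower, against a background of 58.9% of all genes tested, 29.0% higher and 30.0% lower. With sh6, 9 were called, 6 higher and 3 lower, against 67.8%, 34.2% and 33.6%. With both hairpins 4 were called higher (TPM1, TPM2, FSCN1 and ACTN4) and 1 lower (TPM4), while 18.9% and 19.4% of all genes were called so. MYL9 and TAGLN were higher with sh1 and lower with sh6, a combination called for 3.06% of all genes, and CNN2 was lower with sh1 and higher with sh6, called for 3.33%. TPM3 was the 1 member called with neither hairpin. Nothing about the members is read from these shares, since the members were picked with these comparisons in view and the 2 comparisons share their 3 control libraries. The median log2 difference of the 10 was 0.24 with sh1 and 0.36 with sh6, beside 0.00 and 0.01 over all genes tested.

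**Figure D1:**
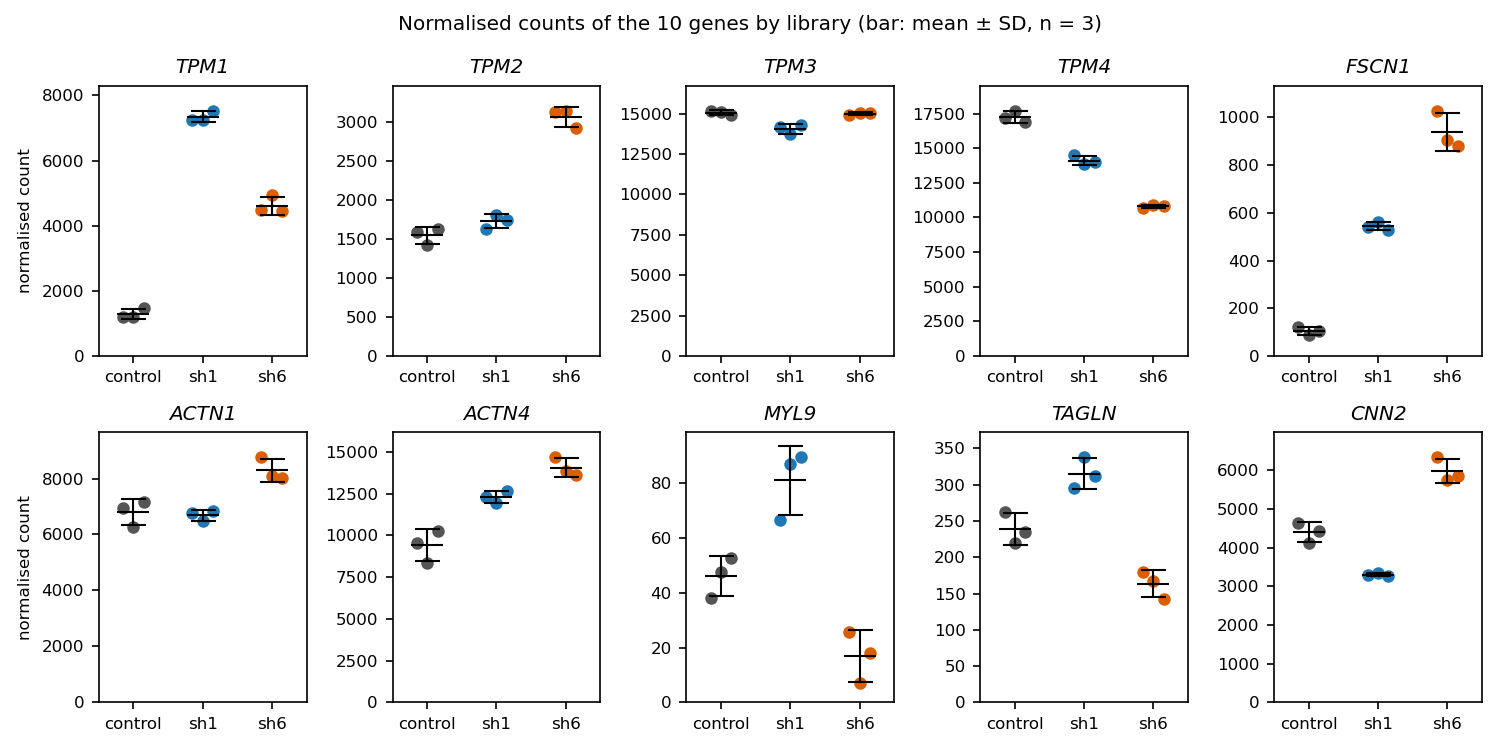
Normalised counts of each gene in the 9 libraries, on a linear axis from 0 with 1 panel per gene and 1 dot per library; bars are the mean ± SD of 3 libraries. TPM1 and FSCN1 stand far above the controls with both hairpins, TPM4 stands below them, and MYL9, TAGLN and CNN2 lie on opposite sides of the controls with sh1 and sh6.

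Among the tropomyosins, TPM1 (chromosome 15, 63042632 to 63071915, plus strand, in GRCh38 by GENCODE release 29, from which the gene positions below also come) had the largest fold and log2 differences from the control. Its normalised counts were 1181, 1210 and 1458 in the controls, 7242, 7255 and 7535 with sh1, and 4468, 4928 and 4439 with sh6. Every hairpin library was above every control, and every sh1 library was above every sh6 library. The sh1 mean was 5.72-fold that of the controls, a log2 difference of 2.46 (SE 0.0623), and the sh6 mean 3.59-fold, a log2 difference of 1.80 (SE 0.0623). By size of change TPM1 ranked 12 of 13165 genes with sh1 and 88 with sh6.

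TPM2 (chromosome 9, 35681992 to 35690121, minus strand), which encodes beta-tropomyosin, had counts of 1588, 1414 and 1624 in the controls, 1627, 1805 and 1734 with sh1, and 3122, 3141 and 2916 with sh6. The sh6 libraries stood clear of the rest, whereas the lowest sh1 library was barely above the highest control. TPM2 was 1.98-fold higher with sh6 (log2 difference 0.96, SE 0.0592) and 1.12-fold higher with sh1 (log2 difference 0.15, SE 0.0592). The call with sh1 was lost without control replicate 2 (log2 difference 0.10), without sh1 replicate 2 (0.12) or sh1 replicate 3 (0.15), and with a variance prior that ignores the mean level (0.15).

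TPM4 (chromosome 19, 16067021 to 16103005, plus strand), a cytoskeletal tropomyosin of non-muscle cells, went the other way. Its counts were 17153, 17716 and 16906 in the controls, 14471, 13868 and 13982 with sh1, and 10694, 10872 and 10814 with sh6, and the 3 groups did not overlap. TPM4 fell 1.22-fold with sh1 (log2 difference -0.29, SE 0.0496) and 1.60-fold with sh6 (log2 difference -0.67, SE 0.0496). TPM3 (chromosome 1, 154155304 to 154194648, minus strand) had counts of 14911 to 15194 in the controls, 13720 to 14279 with sh1 and 14929 to 15057 with sh6. Its sh6 libraries lay within the range of the controls and its sh1 libraries 6.75% lower on average, a log2 difference of -0.10 (SE 0.0492) that was not called. Reads of the processed pseudogene TPM3P9, at a mean normalised count of 129 in the controls, may be shared with TPM3.

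The balance between the tropomyosin genes shifted with both hairpins. Counts were divided by the median length of each gene's transcripts in the consensus coding set, which gave 1104 bases for TPM1, 1183 for TPM2, 1647 for TPM3 and 2473 for TPM4. TPM1 then made up 6.25% ± 0.745 of the summed level of the 4 genes in the controls, 29.8% ± 0.441 in sh1 cells and 20.6% ± 0.863 in sh6 cells. The share of TPM4 was 37.5% ± 0.848, 25.5% ± 0.573 and 21.6% ± 0.284, and that of TPM3 was 49.2% ± 0.475, 38.2% ± 0.333 and 45.0% ± 0.756. The share of TPM2 was 7.01% ± 0.520 in the controls, 6.52% ± 0.392 with sh1 and 12.8% ± 0.418 with sh6. The shares of TPM1 did not overlap between the 3 groups, and those of TPM2 overlapped between the controls and sh1. The summed level per kilobase was 18596 ± 30.1 in the controls, 22346 ± 292 with sh1 and 20239 ± 351 with sh6. Without the length correction the sum with sh6 was instead below that of the controls, at 33471 ± 435 against 35156 ± 278 counts, so the direction of that sum depends on the lengths used. The same holds for 2 of the shares. Without lengths the TPM3 share was 42.9% in the controls and 44.8% with sh6, higher instead of lower, and the TPM2 share was 4.39% in the controls and 4.63% with sh1, also higher instead of lower. The TPM1 share was then 3.65%, 19.7% and 13.8%, and that of TPM4 49.1%, 37.9% and 32.2%, each in the same direction as with lengths. Isoforms of these genes differ in length, and their mix is not seen in a value per gene.

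**Figure D2:**
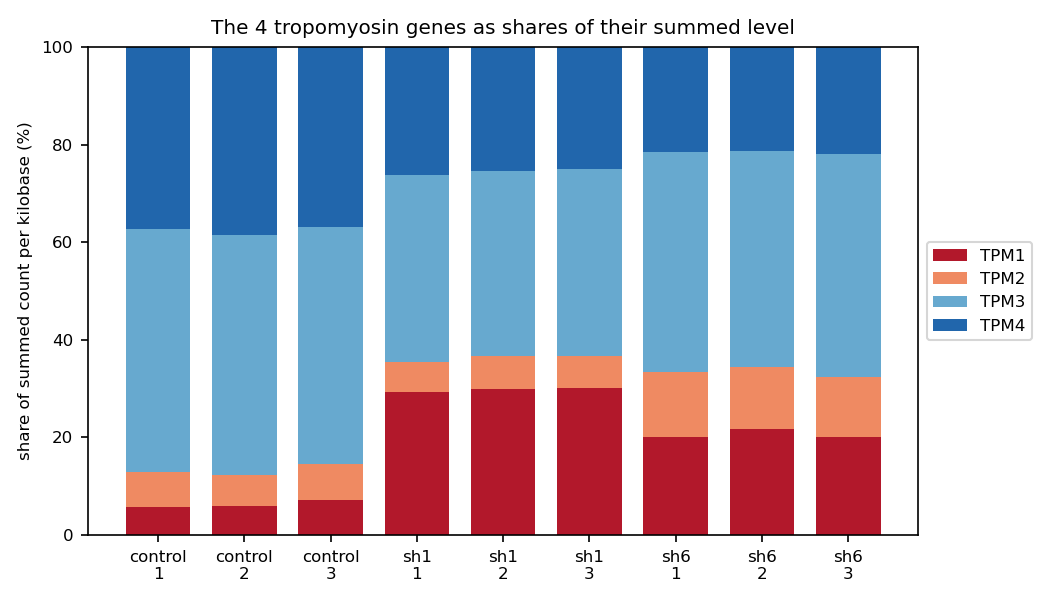
Shares of TPM1, TPM2, TPM3 and TPM4 in the summed normalised count per kilobase of the 4 genes, as stacked bars from 0 to 100%, 1 bar per library. TPM1 fills 5.76% to 7.11% of the bar in the controls, 29.3% to 30.2% with sh1 and 20.1% to 21.6% with sh6, and TPM4 narrows in every hairpin library.

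Of the bundling proteins, FSCN1 (chromosome 7, 5592823 to 5606655, plus strand) was low in control cells and rose with both hairpins. Its normalised counts were 120, 86.2 and 105 in the controls, 542, 562 and 527 with sh1, and 1029, 907 and 882 with sh6. The 3 groups did not overlap, with sh6 the highest. The sh1 mean was 5.24-fold that of the controls (log2 difference 1.91, SE 0.0796) and the sh6 mean 9.06-fold (log2 difference 2.63, SE 0.0796). FSCN1 ranked 33 of 13165 genes by size of change with sh1 and 13 with sh6. The deposited log2 scale understates changes of genes this low, and on log2 of the count plus 1 the differences were larger, within the ranges of 1.83 to 2.39 for sh1 and 2.55 to 3.18 for sh6 that all alternatives spanned.

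The alpha-actinins changed far less. ACTN4 (chromosome 19, 38647649 to 38731583, plus strand) had counts of 9571, 8372 and 10280 in the controls, 12288, 11956 and 12691 with sh1, and 14698, 13856 and 13650 with sh6. The 3 groups did not overlap, although the controls spread over a wide range. ACTN4 was 1.31-fold higher with sh1 (log2 difference 0.39, SE 0.0594) and 1.50-fold higher with sh6 (log2 difference 0.58, SE 0.0594). ACTN1 (chromosome 14, 68874143 to 68979440, minus strand) had counts of 6949, 6273 and 7177 in the controls, 6769, 6473 and 6843 with sh1, and 8767, 8101 and 8023 with sh6. The sh1 libraries lay within the control range and the sh6 libraries above it, 1.22-fold higher on average (log2 difference 0.29, SE 0.0552). The ratio of ACTN4 to ACTN1 counts was 1.38 ± 0.0490 in the controls, 1.84 ± 0.0208 in sh1 cells and 1.70 ± 0.0175 in sh6 cells, and its ranges did not overlap between the groups. Exons of CAPN12 overlap those of ACTN4 on the opposite strand, with mean counts of 164, 220 and 239 in the controls, sh1 and sh6, and no source used here says whether strand was used in counting, so the part of these reads in the ACTN4 values was not tested. Opposite-strand exons of AC079328.2 and TPM1-AS also overlap TPM1, those of AC008894.3 overlap TPM4 and those of AC011558.1 overlap CNN2. Their part in these values was not tested either.

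CNN2, TAGLN and MYL9 lay on opposite sides of the controls with the 2 hairpins. CNN2 (chromosome 19, 1026581 to 1039068, plus strand), a calponin found in non-muscle cells, had counts of 4644, 4119 and 4439 in the controls, 3296, 3340 and 3258 with sh1, and 6340, 5743 and 5858 with sh6. All sh1 libraries were below and all sh6 libraries above the controls, 1.33-fold lower (log2 difference -0.41, SE 0.0543) and 1.36-fold higher (log2 difference 0.44, SE 0.0543). TAGLN (chromosome 11, 117199321 to 117204782, plus strand) had counts of 262, 219 and 235 in the controls, 295, 338 and 312 with sh1, and 180, 167 and 143 with sh6. Here the order was reversed, with TAGLN 1.32-fold higher with sh1 (log2 difference 0.33, SE 0.0846) and 1.46-fold lower with sh6 (log2 difference -0.43, SE 0.0846). PCSK7 overlaps exons of TAGLN on the opposite strand, at mean counts of 491, 810 and 617 in the controls, sh1 and sh6, and the part of its reads in the TAGLN values was not tested.

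MYL9 (chromosome 20, 36541484 to 36551447, plus strand) was the lowest of the 10, with counts of 38.3, 47.6 and 52.7 in the controls, 66.7, 87.0 and 89.6 with sh1, and 25.8, 7.07 and 17.9 with sh6. The 3 groups did not overlap. MYL9 was 1.76-fold higher with sh1 (log2 difference 0.46, SE 0.118) and 2.73-fold lower with sh6 (log2 difference -0.64, SE 0.118). At these counts the size of the difference depends on the scale, and over all alternatives it ranged from 0.39 to 0.80 with sh1 and from -1.55 to -0.48 with sh6. Among smooth muscle markers, ACTG2 had mean counts of 9.30, 33.4 and 4.25 in the controls, sh1 and sh6, the same order as TAGLN and MYL9. Its means in the controls and with sh6 lay below the filter level of 16.2 counts. MYH11 had that order too, at 3.76, 5.38 and 3.72. SMTN, the most abundant marker, had the reverse order at 617, 560 and 784, as did LMOD1 at far lower counts. ACTA2 was highest with sh6, at 17.2, 18.5 and 22.2, and MYOCD was at 0. The list as a whole therefore did not share the order of TAGLN and MYL9. MYL9 falls out of the test when a mean at least 2 above the floor of the table, about 73.0 normalised counts, is required.

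Between the hairpins, 9 of the 10 were called, 5 higher and 4 lower with sh6 than with sh1, beside 59.7%, 30.8% and 28.9% of all genes tested. The differences of sh6 from sh1 on the log2 scale were 0.85 for CNN2 (SE 0.0543), 0.81 for TPM2 (SE 0.0592), 0.72 for FSCN1 (SE 0.0796), 0.31 for ACTN1 (SE 0.0552) and 0.19 for ACTN4 (SE 0.0594). They were -1.10 for MYL9 (SE 0.118), -0.76 for TAGLN (SE 0.0846), -0.67 for TPM1 (SE 0.0623) and -0.38 for TPM4 (SE 0.0496). TPM3 differed by 0.09 (SE 0.0492) and was not called, although its sh6 libraries all lay above its sh1 libraries. The median size of the difference between the hairpins was 0.69 over the 10 genes and 0.22 over all genes tested. The 10 were picked with their differences from the control in view, so nothing is read from this contrast or from the share called. BBOX1 was higher with sh6 than with sh1 by 0.75 on the same scale. TPM1, which was higher with sh1, and FSCN1, which was higher with sh6, thus had their larger rise with different hairpins.

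**Figure D3:**
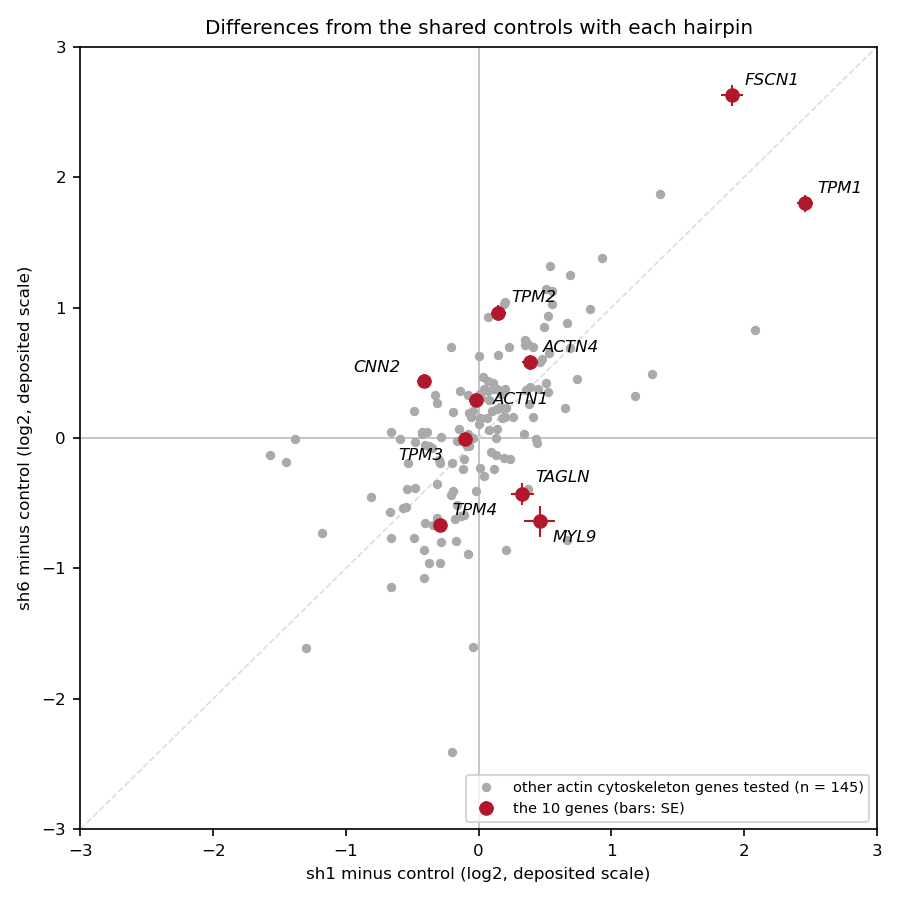
Log2 difference from the control with sh1 (x axis) and with sh6 (y axis) on the deposited scale, for the 10 genes (red, bars are SE) and 145 other actin cytoskeleton genes (grey); the dashed line marks equal differences, and both axes share the same 3 control libraries. TPM1 and FSCN1 lie at the upper right on either side of the dashed line, TAGLN and MYL9 lie at the lower right, and CNN2 lies at the upper left.

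Ordered by count per kilobase of transcript, control cells held TPM3 at 9151 ± 88.1, then TPM4 at 6979 ± 168, CNN2 at 2052 ± 123, ACTN1 at 1963 ± 136, ACTN4 at 1896 ± 194, TPM2 at 1304 ± 94.8, TPM1 at 1162 ± 138, TAGLN at 195 ± 17.9, FSCN1 at 37.3 ± 6.10 and MYL9 at 24.0 ± 3.79 (SD, n = 3). CNN2, ACTN1 and ACTN4 overlapped in their ranges, as did TPM2 and TPM1, and the other neighbours did not. With sh1, TPM1 stood at 6652 ± 150 per kilobase, above TPM4 at 5704 ± 130 and below TPM3 at 8534 ± 179, but per kilobase of coding sequence TPM1 at 8619 lay below TPM4 at 17678. With sh6, TPM1 at 4177 ± 249 and TPM4 at 4364 ± 36.7 overlapped, whereas per kilobase of coding sequence they stood at 5413 and 13526. The coding length also turned 3 neighbours in the control order. TPM4 then stood above TPM3, at 21627 against 20313, ACTN4 above ACTN1, at 3442 against 2541, and MYL9 above FSCN1, at 106 against 70.1. These orders therefore depend on the length used.

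Genes with the pattern most like that of TPM1 and FSCN1 were sought among 10189 named genes by the root mean square difference of their log2 values over the 9 libraries, each gene centred on its own mean. Nearest to TPM1 were the matrix glycoprotein TNC (0.105), the prolyl hydroxylase P3H2 (0.251) and the carboxypeptidase CPA4 (0.261). TNC was higher by 2.26 with sh1 and 1.72 with sh6, close to TPM1 in both. Nearest to FSCN1 were the Wnt antagonist DKK1 (0.169), the adhesion receptor ADGRB2 (0.234) and the catenin-like CTNNAL1 (0.255). DKK1 was higher by 1.97 with sh1 and 2.62 with sh6. The other tropomyosins were far from TPM1, at 0.958 for TPM2, 1.080 for TPM3 and 1.241 for TPM4, while FSCN1 ranked 67 of 10189 at 0.586. This measure weighs the size of a change, and TPM1 and FSCN1 were picked with their large rises in view. Nothing is therefore read from their nearness or from the distance of the other tropomyosins.

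The rest of the actin system was read from 8 lists by role, which leave out the 10 genes, hold 165 genes of the table and had 145 tested. With sh1, 50 were called higher and 51 lower, 69.7% in all, and with sh6, 67 were called higher and 45 lower, 77.2% in all, beside the backgrounds of 58.9% and 67.8% given above. With both hairpins 40 rose (27.6%) and 32 fell (22.1%), beside 18.9% and 19.4% of all genes. A further 10 of the 145 were called in opposite directions. Of all genes, 3.06% were called higher with sh1 and lower with sh6, and 3.33% the other way round. Their median log2 difference was 0.01 with sh1 and 0.07 with sh6. The control libraries are shared by both comparisons here too. The lists were also chosen with earlier results of these data known, so these shares and those of the single lists below are a description only.

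Of the actins, the filament subunits themselves, 3 of 6 were tested and 0 were called with sh1 in limma, also at an unadjusted p under 0.05, with log2 differences of 0.04 for ACTB, 0.07 for ACTG1 and 0.06 for ACTA2. With sh6, ACTG1 rose by 0.93 (limma, adjusted p = 8.1e-14) and ACTB by 0.38 (adjusted p = 2.1e-06). Among other bundlers and crosslinkers, 6 of 17 rose with both hairpins (35.3%), 3 fell (17.6%) and 4 were called in opposite directions. Over all genes tested, 18.9% rose with both and 19.4% fell with both, the shares against which the counts for both hairpins below are to be set. Opposite calls made up 3.06% of all genes with sh1 higher and 3.33% with sh6 higher. Each pair of folds from here on is sh1 first and sh6 second. Filamin A (FLNA), which crosslinks filaments into a gel, rose 1.45-fold and 2.03-fold from a normalised count of 23916 ± 3508 (SD, n = 3) in the controls. LIMA1, a bundler of stress fibres, fell 1.23-fold and 1.99-fold, and the membrane crosslinker MARCKS fell 1.16-fold and 1.35-fold. Of the calponin family and other side-binding proteins, 6 of 16 rose with both (37.5%) and 3 fell (18.8%). The erythroid-type bundler DMTN rose 1.81-fold and 2.82-fold and tropomodulin 2 (TMOD2), which caps tropomyosin-coated filaments, 3.06-fold and 1.55-fold, while acidic calponin (CNN3) fell 1.58-fold and 1.72-fold and coronin CORO1C 1.22-fold and 1.78-fold.

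The stress fibre and adhesion plaque list holds proteins that anchor filaments to the membrane. With sh6, 20 of 27 rose and 5 fell, beside 34.2% and 33.6% of all genes, with a median log2 difference of 0.33. With sh1, 10 rose and 5 fell, beside 29.0% and 30.0%, with a median of 0.12. Between the hairpins themselves 15 of the 27 were higher with sh6 and 4 lower, beside 30.8% and 28.9%. The LIM protein FHL1 rose 2.88-fold and 4.36-fold. Zyxin (ZYX), a LIM protein of adhesion plaques, rose 1.49-fold and 2.26-fold, while TES fell 1.14-fold and 1.34-fold and PDLIM5 fell 1.15-fold with either hairpin. Of 24 genes of filament turnover and capping, 9 fell with both (37.5%, beside 19.4% of all genes) and 2 rose. Gelsolin (GSN), which severs and caps filaments, fell 5.91-fold with sh6 and 1.16-fold with sh1, where the call was lost without sh1 replicate 1 (adjusted p = 0.0503). The monomer-binding thymosin TMSB4X fell 2.27-fold and 1.66-fold, while CAP2 rose 1.47-fold and 1.60-fold and the cofilin phosphatase SSH1 1.32-fold and 1.72-fold.

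Of 25 formin and Arp2/3 genes, 5 rose with both hairpins (20%) and 6 fell (24%), close to the shares over all genes. The Arp2/3 subunit ARPC4 rose 2.90-fold and 4.15-fold and the formin FMNL1 2.77-fold and 3.21-fold, whereas the formin DAAM1 fell 1.34-fold and 2.19-fold. A further formin, FHOD1, fell by 1.64-fold in sh1 cells and 1.52-fold in sh6 cells. Of 20 genes of myosin II and its control, 8 rose with both (40%) and 5 fell (25%). The heavy chain MYH10 rose 1.48-fold and 2.56-fold and the GTPase RHOB 1.50-fold and 2.43-fold, while the essential light chain MYL6 fell 2.78-fold and 1.13-fold and RHOC 1.49-fold and 1.46-fold. Of 13 genes of SRF, its cofactors and immediate targets, 4 rose with both (30.8%) and 4 fell (30.8%). SRF itself rose 1.47-fold and 1.30-fold and the secreted CTGF 4.78-fold and 1.90-fold, while the AP-1 gene FOS fell 3.41-fold and 4.88-fold. JUNB, also of AP-1, was lower by 1.61-fold in sh1 cells and 2.25-fold in sh6 cells. The list genes given here with a fold for both hairpins had adjusted p of at most 0.00713 in limma. They were named because they were called with both hairpins, so low values follow from that choice.

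**Figure D4:**
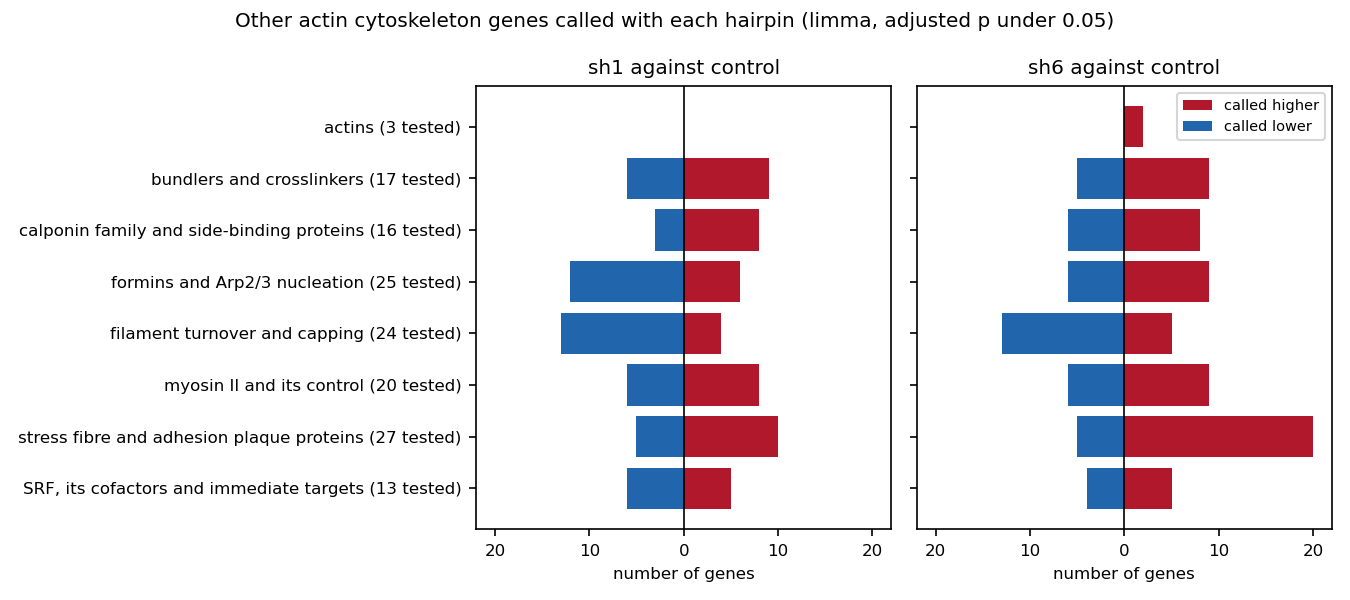
Numbers of genes called higher (red, to the right) and lower (blue, to the left) in each of 8 actin cytoskeleton lists with sh1 and with sh6, by limma at an adjusted p under 0.05; the number tested stands beside each list. The stress fibre and adhesion list has 20 of 27 genes higher with sh6, beside 34.2% of all genes tested. The turnover and capping list has 13 of 24 lower with sh1 and 13 lower with sh6, 9 of them with both. Over all genes tested, 30.0% were lower with sh1 and 33.6% with sh6.

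The authors' deposited table also carries 1 comparison of its own, with samples that are not stated. There the authors' deposited table gives log2 fold changes of 2.84 for FSCN1 (adjusted p = 2.8e-26), 2.22 for TPM1 (3.0e-24), 0.63 for TPM2 (0.0302), 0.49 for ACTN4 (7.1e-06) and -0.47 for TPM4 (0.00152), by the authors' test. For the 3 genes whose hairpins lay on opposite sides of the controls, the authors' deposited table gives values near 0, namely 0.08 for CNN2, 0.08 for MYL9 and 0.00 for TAGLN, with adjusted p of 0.852 to 0.997.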

How the data were processed

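The authors deposited 1 variance-stabilised value on a log2 scale per gene symbol and library, beside log2 fold changes with adjusted p-values from a comparison of their own. Per the submitters' processing notes, the authors used STAR, Salmon, cutadapt and DESeq2 with build hg19, without versions or settings. The deposited values are named batch-corrected, and the labels name no batch. Inverting the stabilising formula from the floor of the table, 5.02, gave normalised counts, and the read worth of each library was found from steps of low values (76.8% to 80.5% of them whole within 0.05). Genes with a mean at least 1 above the floor, 16.2 normalised counts, were tested. limma 3.58.1 in R 4.3.3 fitted all 9 libraries in 1 model of 3 groups, with a mean trend, two-sided, Benjamini-Hochberg over 13165 genes. It was tested on simulated data. Folds are ratios of mean normalised counts, and log2 differences are on the deposited scale. Members and lists were chosen with earlier results of these data known. Named beyond the 10 members are, per actin list, up to 2 rises and 2 falls called with both hairpins, with a mean at least 2 above the floor, and the 3 nearest patterns to TPM1 and to FSCN1. Outside this rule, ACTB, ACTG1, ACTA2, ESPN, TMOD1, SFN, NONO, TAOK3, ARVCF, ACTG2 and the other single cell type markers were named after their values were seen. A gene that this rule names is not reported here. Transcript lengths and gene positions are from GENCODE release 29 on GRCh38. That build is not the build of the authors. Lengths were restricted to consensus coding transcripts after they were seen. Symbols turned into dates (27) are not named. Skeletal muscle markers (7) had summed counts of 941 to 1002, 513 to 542 and 445 to 473 in control, sh1 and sh6, nearly all MB, and leucocyte markers (5) 197 to 225, 73.6 to 91.6 and 131 to 138, nearly all CD68. Alternatives were other filters, centring, prior, scale, a replicate block and leaving out each library.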

Additional observations from a re-analysis of the deposited data

Results flagged for a closer look

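CNN2, TAGLN and MYL9 were flagged because every sh1 library lay on one side of the 3 controls and every sh6 library on the other. How many of all genes separate in this way was not counted. By limma calls, 3.06% of all genes tested were higher with sh1 and lower with sh6, and 3.33% the other way round. The sh6 minus sh1 difference on the log2 scale was 0.85 for CNN2, -0.76 for TAGLN and -1.10 for MYL9. All 3 genes are among those called between the hairpins by limma, but the members were picked with these values in view, so no p-value is attached, and the cause was not tested.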

How the results depend on the processing

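The counts of genes, of the 10 members and of actin list genes called in the 3 comparisons stayed within 1.5 times their values in all 6 other settings and when each library was left out. Across the other settings the genes called ran from 7030 to 8121 with sh1, from 8018 to 9572 with sh6 and from 7087 to 8191 between the hairpins, and without single libraries from 7000 to 8014, from 8337 to 8889 and from 7108 to 8134. Members called ranged from 7 to 8 with sh1 and from 8 to 9 with sh6. With a replicate block, 7950, 9049 and 8002 genes were called in the 3 comparisons, and it changed no call of a member. No label says that the numbers pair the samples, and they were not taken to. Deviations of same-numbered libraries correlated at -0.13 to 0.18, with 3 of 9 pairs over 0.1, and those of other numbers at -0.18 to 0.17, with 2 of 18 over 0.1. Not every library correlated best with its own number. The deposited values are named batch-corrected, so an effect shared by number may already have been removed. These correlations therefore cannot decide whether the numbers pair the samples. Shifting all libraries to a common median moved the median of all genes to 0.02 with sh1 and 0.03 with sh6. Without the length correction the tropomyosin shares in control, sh1 and sh6 were 3.65%, 19.7% and 13.8% for TPM1, 4.39%, 4.63% and 9.14% for TPM2, 49.1%, 37.9% and 32.2% for TPM4, and 42.9%, 37.8% and 44.8% for TPM3, which turned the direction of TPM3 with sh6 and of TPM2 with sh1. Depth limits low genes such as MYL9, at 7.07 to 25.8 counts with sh6.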

Other observations

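Nearest patterns of the other members were read after their values were seen and are given as a description. Of 10189 genes, TPM2 lay nearest to ARVCF, with a root mean square difference of 0.049 over the 9 libraries. Second nearest was the gamma-actin gene ACTG1 at 0.059, which differed from the control by 0.07 with sh1 and 0.93 with sh6. TAGLN lay nearest to SFN, the epithelial 14-3-3 sigma gene, at 0.056, and SFN differed by 0.34 with sh1 and -0.43 with sh6. CNN2 lay nearest to the RNA-binding protein gene NONO at 0.052, and TPM4 to the kinase gene TAOK3 at 0.025. Of the 10 opposite calls among the other actin genes, the bundler espin (ESPN) had the widest gap, at 0.67 with sh1 and -0.78 with sh6 (sh6 against sh1 -1.45, limma, adjusted p = 1.7e-14), followed by tropomodulin 1 (TMOD1) at 0.21 and -0.86 (-1.07, adjusted p = 2.6e-13).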
